A study of Homo sapiens with 4 samples.

Results

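Cathepsins A, B, C, D, H, L, S and Z (CTSA, CTSB, CTSC, CTSD, CTSH, CTSL, CTSS and CTSZ) and legumain (LGMN) were followed by RNA-seq in 2 human colorectal cell lines. The 9 genes were found by symbol in the deposited gene table, which holds 18650 named loci with at least 1 sequenced fragment. They were chosen by their measured values in HT-29 cells, where some were higher and others lower with sturgeon chondroitin sulfate (SCS), and the values of that contrast stand here as a description only. HT-29 is an established line from a human colorectal adenocarcinoma, and NCM460 is the line that the study takes as normal colon cells. Each line was sequenced as an untreated control and after 24 h with 100 μg/mL SCS, and each condition has 1 library. SCS is a sulfated glycosaminoglycan prepared from a hybrid sturgeon. The design asks how the cancer line responds to SCS and whether the line taken as normal responds in the same way.

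Cathepsins are the main proteases of the lysosome, the acidic compartment in which cells degrade proteins taken up from outside or delivered by autophagy. Most of them are cysteine proteases that are made as inactive precursors, carried to the lysosome by mannose 6-phosphate receptors and activated there by cleavage, in part by legumain, and cystatins block the enzymes that escape. Glycosaminoglycans such as chondroitin sulfate are themselves taken apart in lysosomes, and in colon tumours secreted cathepsins B, D and L have long been studied for their part in degrading the extracellular matrix.

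The 4 libraries were shallow. Nuclear genes received 1061700 fragments in the HT-29 control, 1383424 with SCS, 507692 in the NCM460 control and 621582 with SCS, and pairs of values below keep the order of control and then SCS. Mitochondrial transcripts took 35.8% and 13.8% of all fragments in HT-29 and 62.3% and 46.3% in NCM460. Levels are given as CPM, fragments scaled to a common library size by TMM, which assumes that most loci do not differ, and between genes as the deposited FPKM, which also divides by transcript length. A difference is a log2 ratio of CPM with a prior count of 2 and, in parentheses, a 95% exact Clopper-Pearson counting interval, and a gene was called higher or lower when the ratio passed 1.5-fold (0.58 on the log2 scale) and the interval left out 0. With 1 library per condition no test within a line could be made, and the intervals cover counting error only. Of 14 colon epithelium markers, 11 and 10 were above 0 in HT-29 cells against 6 and 6 in NCM460 cells. In NCM460 cells KRT20, CDX1, VIL1 and 5 others were at 0 in both libraries. CDX1, CDX2 and TFF3 were at 0 in both HT-29 libraries, and of these CDX2 was above 0 in NCM460 cells. The summed level of the 14 markers was 6549.8 and 3581 CPM in HT-29 and 4346 and 2659 CPM in NCM460, lower with SCS in both lines, and its part in the results below was not tested. Of 9 mesenchymal markers, 4 and 3 were above 0 in HT-29, with sums of 5.38 and 6.66 CPM, and 5 and 5 in NCM460, with sums of 119 and 132 CPM. The leukocyte marker PTPRC and the macrophage markers CD14, MRC1 and MARCO were at 0 in all 4 libraries, as were 4 others of a list of 12 blood cell markers. The rest of that list, CD68 and LYZ among them, summed to between 394 and 618 CPM per library, with LYZ and ITGAM at 0 in both NCM460 libraries.

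The cathepsins differed widely in abundance, and the 2 lines used different ones. Cathepsin D (ENSG00000117984), the aspartic endopeptidase that starts the breakdown of many lysosomal substrates, had 629 and 914 fragments in HT-29 cells against 139 and 96 in NCM460 cells, which is 307, 380.4, 178 and 88.8 CPM. Per length it was the most abundant of the 9 genes in both HT-29 libraries, at 139 and 162 FPKM. In NCM460 cells the first place belonged to cathepsin B, a cysteine protease that cuts within chains and also removes dipeptides from their end, at 133 and 64.8 FPKM. Cathepsin B was at 16.1 and 16.8 FPKM in HT-29 cells, below CTSA in each library. The HT-29 control followed CTSD with CTSZ at 79.2 FPKM, CTSH at 65.4, CTSC at 36.8 and CTSA at 36.4. The neighbours CTSC and CTSA differed by less than their counting error, with 166 and 146 fragments. In the NCM460 control CTSB was followed by CTSD at 89.2 FPKM, CTSZ at 59.8, CTSA at 52.1, CTSL at 17.1, LGMN at 16.5 and CTSC at 8.43. At the foot of both orders, beside CTSH in the NCM460 control, stood cathepsin S (ENSG00000163131, chromosome 1, 150730196 to 150765957), the cysteine protease that trims the invariant chain in antigen-presenting cells, with 7 and 9 fragments in HT-29 cells against 0 and 0 in NCM460 cells, which allows up to 3.85 and 2.77 CPM there.

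**Figure D1:**
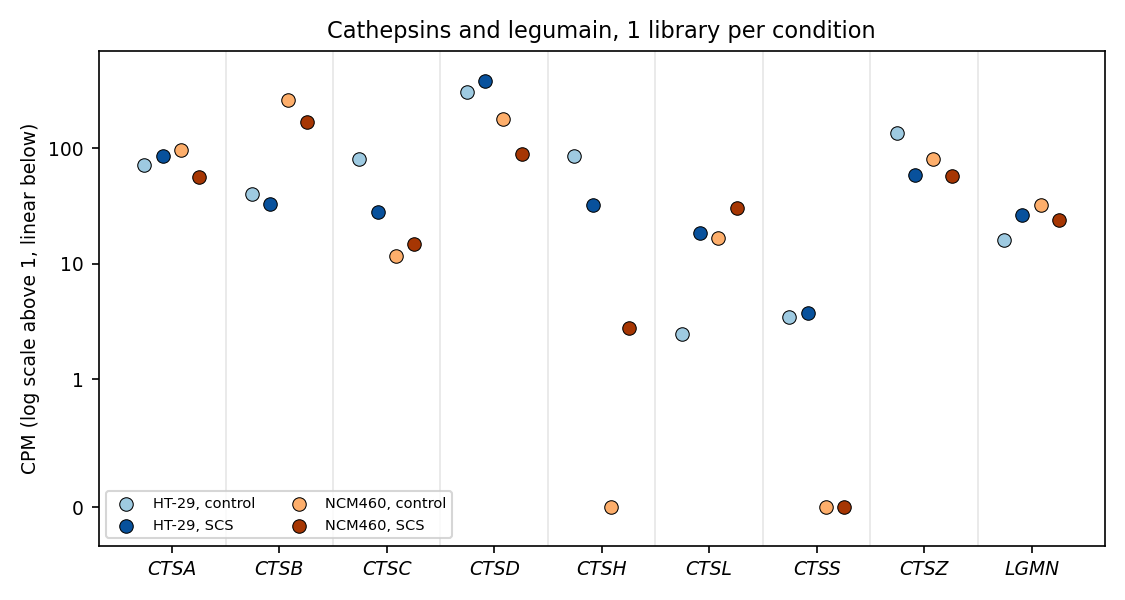
Level of the 9 genes in CPM (vertical axis, logarithmic above 1 and linear below) in each of the 4 libraries, 1 point per library, light for control and dark for SCS. CTSD lies at 307 and 380.4 CPM in HT-29 cells, CTSB at 264.5 and 167 CPM in NCM460 cells, CTSH and CTSS are at 0 in the NCM460 control, and CTSL is at 2.44 CPM in the HT-29 control against 16.7 to 30.5 CPM in both NCM460 libraries.

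The start regions of these genes are shown because many lysosomal genes carry the palindrome CACGTG (an E-box read by TFEB and TFE3), and because CTSL and CTSC had the largest difference in each direction in HT-29 cells. RefSeq's promoter table (GRCh38.p14) held 6 of the 9 genes, CTSA, CTSC, CTSD, CTSH, CTSL and CTSZ, and no entry was matched for CTSB, CTSS and LGMN. The 150 bases before the start of 4 of them follow, read along the strand of the gene, with capitals for CACGTG, for the GC box GGGCGG or its complement CCGCCC, and for CCAAT. The CTSA stretch lies at chr20:45891185-45891334 on the plus strand, CTSD at chr11:1763928-1764077 on the minus strand, CTSL at chr9:87725969-87726118 on the plus strand and CTSC at chr11:88337737-88337886 on the minus strand.
CTSA: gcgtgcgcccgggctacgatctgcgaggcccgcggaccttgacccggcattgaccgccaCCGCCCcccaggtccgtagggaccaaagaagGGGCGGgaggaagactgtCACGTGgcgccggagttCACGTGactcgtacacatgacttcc
CTSD: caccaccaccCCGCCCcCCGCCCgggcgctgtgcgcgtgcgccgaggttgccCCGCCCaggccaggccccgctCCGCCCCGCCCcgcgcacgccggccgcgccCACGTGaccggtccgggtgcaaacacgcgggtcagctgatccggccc
CTSL: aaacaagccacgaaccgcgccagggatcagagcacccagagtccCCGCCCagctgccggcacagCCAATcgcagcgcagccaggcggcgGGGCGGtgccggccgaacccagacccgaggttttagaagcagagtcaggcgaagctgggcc
CTSC: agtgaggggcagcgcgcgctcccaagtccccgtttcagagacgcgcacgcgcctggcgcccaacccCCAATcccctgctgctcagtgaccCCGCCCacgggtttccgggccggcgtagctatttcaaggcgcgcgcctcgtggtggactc
CACGTG was found in 2 of the 6 promoters, searched over 250 bases before and 50 after the start on both strands. CTSA held it at positions -42 and -25 from the start and CTSD at -47, while 7.26% of all 35116 promoters in the table hold it. The GC box was in all 6 promoters and in 45% of the table, and in CTSD 2 of its matches overlap. CCAAT, searched also as its complement ATTGG, was in CTSC at -84 and in CTSL at -86, and in 34.6% of the table. A match of letters is a description and no sign that a factor binds there.

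In HT-29 cells CTSC, CTSH and CTSZ were called lower with SCS, CTSL and LGMN were called higher, and CTSA, CTSB, CTSD and CTSS were not called. That is 5 of the 9 genes, all of which were tested, where 31.5% of all 12168 loci tested were called (16.8% higher and 14.8% lower). Because this contrast chose the genes, nothing is read from that share. Their median log2 difference was 0.10, against 0.07 for all loci.

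Cathepsin C (ENSG00000109861), or dipeptidyl peptidase I, removes dipeptides from the start of proteins and activates the serine proteases of immune cells. Its locus spans bases 88293592 to 88337787 of chromosome 11 (GRCh38). The level fell from 81.1 to 28.3 CPM, with 166 and 68 fragments. This was a log2 difference of -1.48 (-1.95 to -1.10), the lowest of the 9 genes. Cathepsin H (ENSG00000103811) is an aminopeptidase encoded on chromosome 15 between 78921058 and 78949574. It fell from 86.5 to 32.5 CPM, with 177 and 78 fragments, a log2 difference of -1.38 (-1.82 to -1.02). Cathepsin Z (ENSG00000101160), also called cathepsin X, is a carboxypeptidase encoded on chromosome 20 between 58995185 and 59007247. It fell from 134 to 59.1 CPM, with 275 and 142 fragments, a log2 difference of -1.17 (-1.49 to -0.89). These 3 intervals overlap each other, and each of the 3 calls held under all 12 alternative settings. Read as ratios, the SCS library held 0.349 of the control level of CTSC, 0.375 of CTSH and 0.440 of CTSZ.

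Cathepsin L (ENSG00000135047) is a potent endopeptidase that degrades proteins delivered by autophagy and also processes other lysosomal enzymes. It is encoded on chromosome 9 from 87725519 to 87731393. It went from 5 to 44 fragments, or from 2.44 to 18.3 CPM, a log2 difference of 2.40 (1.57 to 4.60). The ratio of CPM without the prior count was 7.49, with a counting interval of 2.98 to 24.2, so that 5 control fragments leave its size loosely measured although the call held under all 12 settings. Legumain (ENSG00000100600, chromosome 14, 92703807 to 92748702) cuts after asparagine and turns the single-chain forms of several cathepsins into the double-chain forms. It had 33 and 63 fragments (16.1 and 26.2 CPM), a log2 difference of 0.66 (0.07 to 1.35), and was not called with nuclear totals in place of TMM, after thinning to the smallest nuclear total or at a threshold of 2-fold. Transcripts of CTSL share 2.13% of their 31-base words with the pseudogene CTSL3P and those of LGMN 4.18% with LGMNP1, so a small part of their fragments could be placed on either copy.

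The 4 other genes were not called in HT-29 cells. Cathepsin D had the most fragments and the narrowest interval, with a log2 difference of 0.31 (0.16 to 0.46) that left out 0 but stayed under 1.5-fold. Its values are uncertain, because the table lists CTSD with the same numbers as IFITM10 and RP11-295K3.1, which overlap it on chromosome 11 from 1752752 to 1763992. Cathepsin A, the serine carboxypeptidase that protects β-galactosidase and neuraminidase in the lysosome, had 146 and 205 fragments (71.4 and 85.3 CPM), a log2 difference of 0.25 (-0.06 to 0.57). Cathepsin B had 82 and 79 fragments (40.1 and 32.9 CPM), a log2 difference of -0.28 (-0.75 to 0.18). For CTSS the log2 difference of 0.10 came with an interval of -1.46 to 1.79, and a change was not detectable at this depth. Transcript GC content and the log2 differences were only loosely related in HT-29 cells (Spearman's rho of -0.12 across 12101 loci, which are not independent), and the same 5 genes were called after a trend on GC was subtracted.

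**Figure D2:**
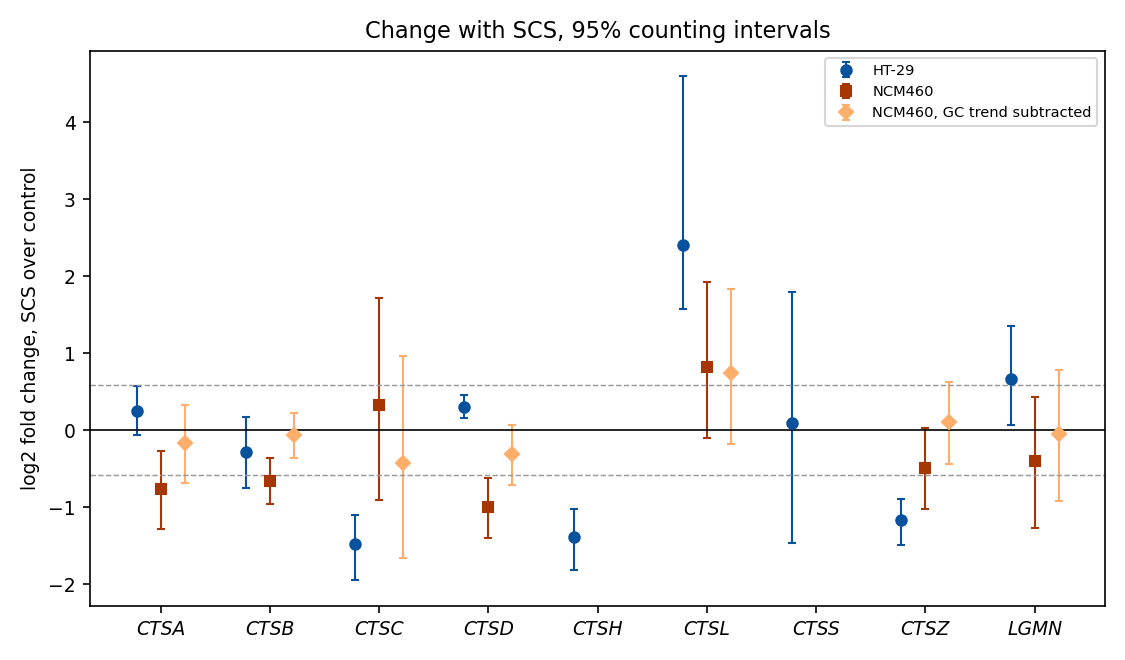
Log2 difference of SCS over control (vertical axis) for each gene in HT-29 cells and in NCM460 cells, the latter also with the GC trend subtracted. Bars are 95% counting intervals and dashed lines mark 1.5-fold, and no point is drawn in NCM460 cells for CTSH and CTSS, which had at most 3 fragments in each library. CTSL is the highest point at 2.40 and CTSC the lowest at -1.48, both in HT-29 cells, and the NCM460 points of CTSA, CTSB and CTSD move from -0.76, -0.66 and -0.997 to -0.16, -0.06 and -0.31 with the GC trend subtracted.

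In NCM460 cells no member was called higher with SCS, and CTSA, CTSB and CTSD were called lower. These are 3 of 8 genes tested, where 29.2% of 12657 loci were called (15.4% higher and 13.8% lower). With a trend on GC content subtracted, none of the 3 calls remained, and the number called over all loci fell from 3690 to 1582. Cathepsin D had 139 and 96 fragments (178 and 88.8 CPM), a log2 difference of -0.997 (-1.40 to -0.62), which was -0.31 (-0.71 to 0.07) with the GC trend subtracted. Cathepsin A (ENSG00000064601, chromosome 20, 45890144 to 45898820) was at 96.3 and 56.4 CPM, with 75 and 61 fragments. Its log2 difference was -0.76 (-1.28 to -0.26), and -0.16 with the trend subtracted. Cathepsin B (ENSG00000164733, chromosome 8, 11842524 to 11869448) was at 264.5 and 167 CPM, with 206 and 181 fragments. Its log2 difference was -0.66 (-0.96 to -0.37), and -0.06 with the trend subtracted. The calls of CTSA and CTSB were also lost with total or nuclear scaling, with an expression trend subtracted and at 2-fold. That of CTSD was also lost with total scaling and at 2-fold.

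The other genes were not called in NCM460 cells. Cathepsin L had 13 and 33 fragments (16.7 and 30.5 CPM), a log2 difference of 0.82 (-0.09 to 1.92), which was the highest of the 7 genes with a measurable ratio, and 0.74 with the GC trend subtracted. It was called higher when libraries were scaled by total or by nuclear fragments. Cathepsin Z had 63 and 62 fragments (80.9 and 57.3 CPM), a log2 difference of -0.49 (-1.03 to 0.03). Legumain had 25 and 26 fragments (32.1 and 24.0 CPM), a log2 difference of -0.40 (-1.27 to 0.44). Cathepsin C, at 9 and 16 fragments (11.6 and 14.8 CPM), had a log2 difference of 0.32 (-0.91 to 1.72). For CTSH, with 0 and 3 fragments, and CTSS, with 0 and 0, no ratio can be given. The median over the 7 measurable genes was -0.49, and -0.06 with the GC trend subtracted, against 0.03 for all loci.

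GC content moved with the NCM460 values across the whole library, with a Spearman's rho of -0.62 across 12595 loci. The median log2 difference was 0.87 for loci with 40% to 45% GC and -0.71 for loci with 60% to 65%. The transcripts of CTSA, CTSB and CTSZ have 58.5%, 58.4% and 58.3% GC, those of CTSD 63.3%, LGMN 54.5%, CTSL 50.3% and CTSC 44.8%. The 3 genes called lower are thus the 3 most GC-rich of the 9. The mitochondrial share was lower with SCS in both lines, and its part in these results was not tested.

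**Figure D3:**
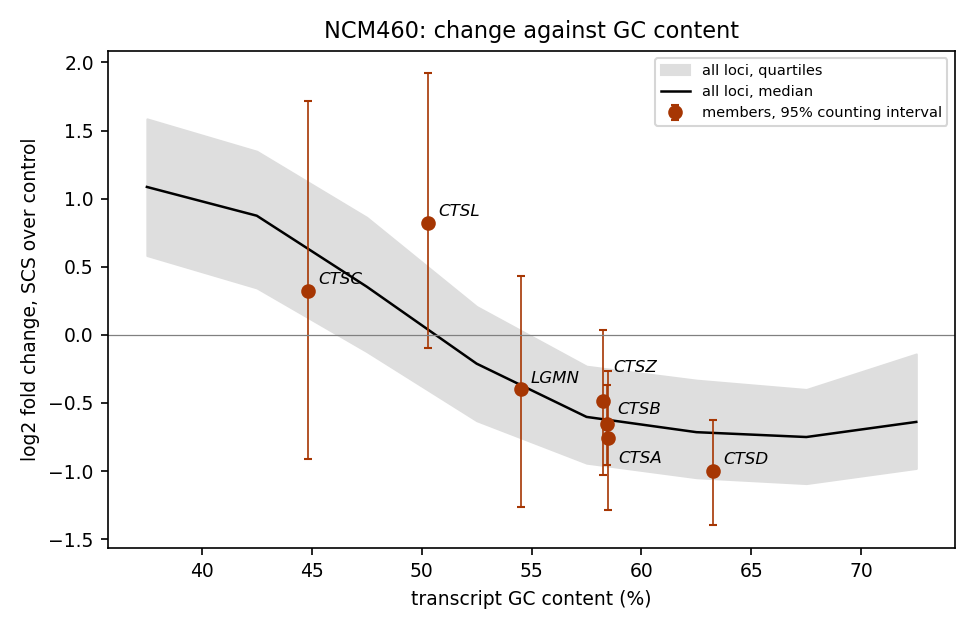
Log2 difference of SCS over control in NCM460 cells (vertical axis) against transcript GC content in percent (horizontal axis). The line and band are the median and quartiles of all loci in steps of 5% GC and the points are the genes with 95% counting intervals. CTSA, CTSB and CTSD, at -0.76, -0.66 and -0.997, lie near the falling line, and CTSL at 0.82 lies above it.

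Without SCS the lines differed in most of these genes. In this comparison 7 of the 9 genes were called, 4 higher and 3 lower in HT-29 than in NCM460 cells, where 48.4% of 12691 loci were called (25.3% higher and 23.1% lower). It uses the same control libraries as both SCS comparisons. Cathepsin H had 177 fragments in the HT-29 control and 0 in the NCM460 control. Against a floor of 3 fragments per library it was 22.5-fold higher in HT-29 cells, a value that leaves out counting error. Its counting interval began at 4.18 on the log2 scale, a smaller ratio. Cathepsin C, at 81.1 CPM against 11.6, had a log2 difference of 2.68 (1.85 to 3.97). CTSD and CTSZ were higher in HT-29 cells by 0.78 (0.52 to 1.06) and 0.72 (0.33 to 1.15). The CTSD call was lost at 2-fold and the CTSZ call with the authors' scaling, after thinning, at 2-fold and by the deposited FPKM. Cathepsin B was lower in HT-29 cells, 40.1 against 264.5 CPM, a log2 difference of -2.68 (-3.11 to -2.35). Cathepsin L, at 2.44 against 16.7 CPM, had a log2 difference of -2.27 (-4.61 to -1.19), and with SCS the HT-29 library came to 18.3 CPM. Without the prior count the CPM ratios of CTSB and CTSL were 0.152 and 0.146, so which was lower by more is not settled. LGMN was called lower at -0.94 (-1.79 to -0.18), a call lost with total or nuclear scaling, with the GC trend subtracted, after thinning and at 2-fold. CTSA had 71.4 against 96.3 CPM and was not called at -0.43 (-0.84 to -0.01), but its sign turned to 0.65, called higher in HT-29 cells, with total counts only, and to 0.22 with the GC trend subtracted. GC content moved with this comparison too, with a Spearman's rho of -0.50 across 12643 loci. With the GC trend subtracted, CTSC was at 1.84, CTSB at -2.04, CTSD at 1.72 and CTSZ at 1.36. These 4 stayed called, but their values lie outside the intervals given above. CTSH and CTSL, at 6.27 and -2.34, also stayed called. In bulk RNA, fewer cells that express a gene and less of its RNA per cell cannot be told apart.

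The response to SCS was then set against itself in the 2 lines, as the HT-29 log2 difference minus the NCM460 one. Of the 9 genes, 4 were called higher and 2 lower, where 24.6% of 12942 loci were called (10.4% higher and 14.1% lower) and the median of all loci was -0.10. The HT-29 contrast that chose the genes is one side of this difference, so it is given as a description. Cathepsin D had the difference with the narrowest interval, 1.30 (0.90 to 1.73), made of 0.31 in HT-29 cells and -0.997 in NCM460 cells, and it stayed called under all 12 settings, at 0.62 (0.22 to 1.05) with the GC trend subtracted. CTSL was at 1.58 (0.27 to 3.998), LGMN at 1.06 (0.03 to 2.20) and CTSA at 1.01 (0.43 to 1.63). The first was lost with total or nuclear scaling, the second with those 2, after thinning and with the GC trend, and the third with the GC trend alone, at 0.46. CTSC was lower in its response by -1.80 (-3.30 to -0.52) and CTSZ by -0.68 (-1.30 to -0.07). With the GC trend subtracted, CTSC was at -1.18 (-2.68 to 0.10) and no longer called, and CTSZ was at -1.22 (-1.84 to -0.62). The CTSZ call was lost with DESeq2 size factors, with the authors' scaling, after thinning and at 2-fold. CTSB differed by 0.38 (-0.18 to 0.93), and for CTSH and CTSS the NCM460 side could not be measured.

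Counted together, the 9 genes made up a small share of the nuclear fragments in all libraries. They held 1520 of them in the HT-29 control, or 0.143% (0.136% to 0.151%), and 1602 in HT-29 cells with SCS, or 0.116% (0.110% to 0.122%). In NCM460 cells they held 530, or 0.104% (0.0957% to 0.114%), and 478, or 0.0769% (0.0702% to 0.0841%). The summed CPM differed by -0.16 (-0.26 to -0.05) on the log2 scale in HT-29 cells and by -0.62 (-0.80 to -0.44) in NCM460 cells, but by 0.12 and 0.07 when libraries were scaled by total fragments, a scaling that puts the median of all loci at 0.32 and 0.57. Without CTSD, the HT-29 sum differed by -0.61 (-0.75 to -0.46) and, under total scaling, by -0.33. The GC trend was subtracted gene by gene and not from these sums, and its part in them was not tested.

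The make-up of this sum also differed. In HT-29 cells the summed FPKM was 382 and 305, and CTSD, which was not called and whose locus is merged, took 36.4% of it in the control and 52.9% with SCS, while CTSZ went from 20.8% to 9.28%, CTSH from 17.1% to 5.68% and CTSC from 9.63% to 4.14%. CTSL rose from 0.416% to 2.87% and LGMN from 1.66% to 4.80%. In NCM460 cells CTSB held 35.3% and 31.6%, CTSD 23.7% and 18.0% and CTSL 4.56% and 9.47%, and CTSZ stood at 15.9% in both libraries. These shares are of the deposited FPKM, whose log2 differences did not always match those of CPM given above. In HT-29 cells CTSL was at 2.39 in FPKM and 2.40 in CPM, but CTSH was at -1.91 and -1.38. LGMN also rose by more in FPKM there. In NCM460 cells CTSL was at 0.18 in FPKM and 0.82 in CPM, and CTSC was at -0.27 and 0.32. The cause of these gaps was not tested, and the shares also carry the counting error of the fragments.

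**Figure D4:**
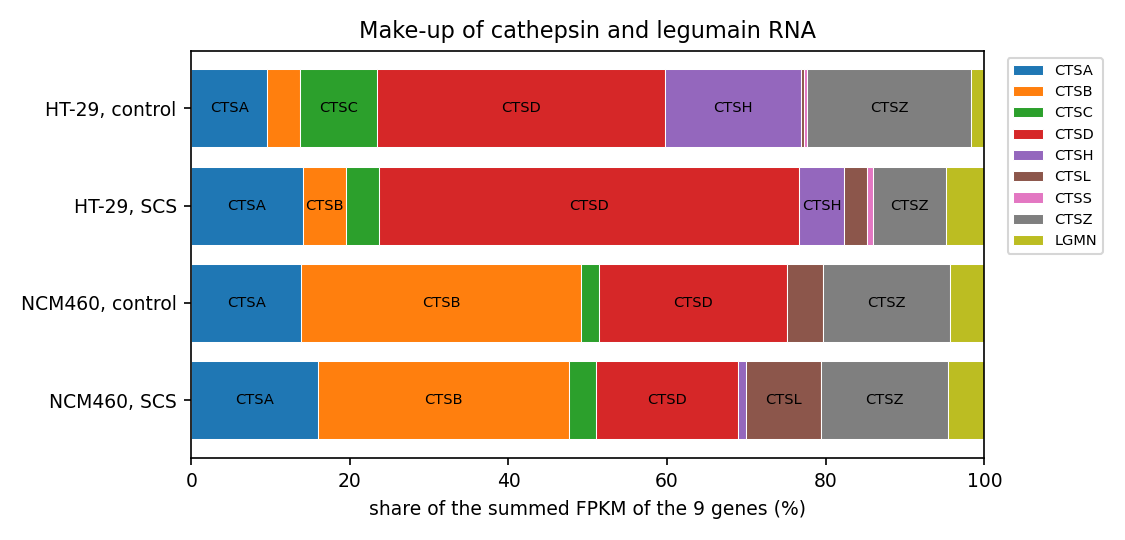
Share of each gene in the summed FPKM of the 9 genes (horizontal axis, percent), 1 bar per library. In HT-29 cells the CTSD block widens from 36.4% to 52.9% with SCS and the CTSC, CTSH and CTSZ blocks narrow, and in NCM460 cells CTSB is the widest block at 35.3% and 31.6%.

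The pattern of each gene over the 4 libraries was compared by the Euclidean distance of log2 CPM centred on the gene's own mean, where 0 means the same shape. CTSA and LGMN were the most alike pair at 0.623, followed by CTSD and CTSS at 0.879, although CTSS rests on 16 fragments in all. CTSZ lay nearest to CTSA at 1.07 and CTSC nearest to CTSS at 1.15. CTSL, nearest to LGMN at 1.85, CTSB, nearest to LGMN at 2.19, and CTSH, nearest to CTSC at 2.96, had no close neighbour among the 9. Among the 7799 loci that averaged 10 CPM or more, those nearest to CTSL were SAT1 at 0.428, GPSM1 at 0.454 and NFIL3 at 0.476. The loci nearest to CTSC were RASSF3 at 0.200, the merged locus of C15orf52 and RNA5SP392 at 0.209 and MYLK at 0.267. CTSL had 5 fragments in the HT-29 control and CTSC 9 in the NCM460 control. The distances carry no counting error, so which loci lie nearest is loosely measured.

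Other proteases of the same compartment were followed as lists. Over all loci tested in HT-29 cells 16.8% were called higher and 14.8% lower. Of 10 further cathepsins and cathepsin-like genes, 4 were tested in HT-29 cells, with 1 called higher and 1 lower and a median of 0.05. The one called higher was CTSV, the closest relative of CTSL, with 4 and 16 fragments in HT-29 cells against 2 and 5 in NCM460 cells, a log2 difference of 1.30 (0.14 to 3.81) in HT-29 cells. CTSV shares 0.362% of its 31-base words with CTSL. CTSE, an aspartic protease named after its values were seen, had 6 and 0 fragments in HT-29 cells and was at least 2.35-fold lower there against the floor, a bound that leaves out counting error, while its counting interval reached up to -0.47 on the log2 scale. TINAGL1, a cathepsin-like protein without protease activity, had 328 and 364 fragments in HT-29 cells against 61 and 26 in NCM460 cells, where it was called lower at -1.65 (-2.43 to -1.02). NAPSA had at most 2 fragments in any library.

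Of 6 other lysosomal peptidases, 4 were tested in HT-29 cells, with 2 called higher, none lower and a median of 0.67, where 16.8% of all loci were called higher. Tripeptidyl peptidase TPP1, which removes tripeptides from the start of proteins, had 121 and 359 fragments in HT-29 cells against 39 and 35 in NCM460 cells. It was higher in HT-29 cells by 1.32 (1.04 to 1.65). The dipeptidyl peptidase DPP7, at 58 and 107 fragments, was higher there by 0.63 (0.18 to 1.138). In NCM460 cells DPP7 had 88 and 81 fragments and was called lower at -0.59 (-1.05 to -0.14), but was at 0.13 with the GC trend subtracted. SCPEP1 and PRCP, 2 lysosomal carboxypeptidases, were at 0.72 (-0.12 to 1.81) and -0.51 (-1.42 to 0.27) in HT-29 cells.

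Of 5 genes for the complex of cathepsin A and for sphingolipid activators, 2 were called higher in HT-29 cells and none lower, with a median of 0.30, where 16.8% of all loci were called higher. Neuraminidase NEU1, which is stable only when bound to CTSA, had 110 and 308 fragments in HT-29 cells, a log2 difference of 1.23 (0.93 to 1.58), and 17 and 17 in NCM460 cells. Prosaposin (PSAP), a precursor that cathepsins cut into activators of lipid degradation, had 677 and 1393 fragments in HT-29 cells, a log2 difference of 0.81 (0.68 to 0.94), and 348 and 367 in NCM460 cells, where it was at -0.40 (-0.61 to -0.18). The β-galactosidase gene GLB1, merged with TMPPE, was at 0.30 (-0.20 to 0.83) in HT-29 cells and was called lower in NCM460 cells at -1.05 (-2.12 to -0.16), a call lost with the GC trend subtracted. GM2A was not called in either line.

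Of 16 cathepsin inhibitors, 6 were tested in HT-29 cells with none called higher and 1 lower, where 16.8% and 14.8% of all loci were. In NCM460 cells 7 were tested with 1 called in each direction, where 15.4% of all loci were called higher and 13.8% lower. SERPINB1, a serpin that inhibits cathepsin G and neutrophil elastase, had 116 and 73 fragments in HT-29 cells, a log2 difference of -0.87 (-1.34 to -0.47). It had 9 and 40 in NCM460 cells, a log2 difference of 1.58 (0.61 to 2.91), which was 0.83 and no longer called with the GC trend subtracted. Cystatin C (CST3), the main secreted inhibitor, had 130 and 125 fragments in HT-29 cells and was not called at -0.28 (-0.65 to 0.08). In NCM460 cells it had 82 and 44 fragments and was lower by -1.34 (-1.93 to -0.83), or by -0.75 with the GC trend subtracted, which was still called. Stefin B (CSTB), the cytosolic inhibitor, was not called in either line, with 92 and 133 fragments in HT-29 cells against 50 and 50 in NCM460 cells.

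Of 19 genes for the delivery of cathepsins to the lysosome, 4 were called higher and 5 lower in HT-29 cells, with a median of -0.08, where 31.5% of all loci tested were called in either direction. In NCM460 cells also 4 and 5 were called, with a median of -0.25, where 29.2% of all loci were called. With the GC trend subtracted 1 and 2 were called there, and the number called over all loci fell from 3690 to 1582. SORL1, a sorting receptor between the Golgi and endosomes, had 240 and 89 fragments in HT-29 cells, a log2 difference of -1.63 (-2.03 to -1.31). LRP1, a cell surface receptor that takes up many secreted proteins, had 163 and 356 fragments in HT-29 cells, a log2 difference of 0.88 (0.62 to 1.17). In NCM460 cells LRP1 had 21 and 11 fragments and was called lower at -1.30 (-2.61 to -0.29), but not with the GC trend subtracted, at -0.69. GNPTAB, the enzyme that adds the mannose 6-phosphate tag, had 24 and 51 fragments in HT-29 cells against 3 and 23 in NCM460 cells and was called higher in both, at 0.79 (0.13 to 1.62) and 2.14 (0.74 to 4.84), and in neither with the GC trend subtracted. AP1M2, an adaptor subunit, was called lower at -1.04 (-1.51 to -0.65) in HT-29 cells and at -0.60 (-1.15 to -0.08) in NCM460 cells, where it was at -0.15 and not called with the GC trend subtracted. AP1S1 was lower in HT-29 cells at -0.67 (-1.27 to -0.15).

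Of 24 enzymes for sugars and lipids of the lysosome tested in HT-29 cells, 3 were called higher and 1 lower with a median of 0.22, where 16.8% of all loci were called higher and 14.8% lower. Of 23 in NCM460 cells 1 was called higher and 3 lower with a median of 0.06, where 15.4% and 13.8% of all loci were. Acid α-glucosidase (GAA), which degrades glycogen, had 7 and 31 fragments in HT-29 cells, a log2 difference of 1.60 (0.70 to 3.34), and 118 and 82 in NCM460 cells, a log2 difference of -0.99 (-1.42 to -0.58), which was -0.27 once the GC trend was subtracted and then not called. The thioesterase PPT1 had 158 and 90 fragments in HT-29 cells and was lower by -1.02 (-1.43 to -0.66). MANBA, FUCA1, NPC2 and NAGLU were not called in either line. With the GC trend subtracted FUCA1 was called lower in NCM460 cells, at -1.71.

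Of 8 tested regulators of lysosomal genes in HT-29 cells, 3 were called higher and none lower, with a median of 0.46 and the same 16.8% of all loci called higher. In NCM460 cells 1 of 9 was called higher, where 15.4% of all loci were. TFE3, a transcription factor that reads CACGTG, had 84 and 155 fragments in HT-29 cells, a log2 difference of 0.64 (0.26 to 1.05), and 18 and 13 in NCM460 cells. Its relative TFEB had 16 and 9 fragments in HT-29 cells and was not called at -0.86 (-2.42 to 0.20). FNIP1 and RRAGC, which relay nutrient signals at the lysosome, were called higher in HT-29 cells at 0.65 (0.34 to 0.98) and 0.62 (0.18 to 1.10), but both belong to merged loci and both calls were lost with the GC trend subtracted. The GC content used for a merged locus can be that of another of its genes. Of the antigen presentation partners of CTSS and CTSL, 2 were tested in HT-29 cells and none was called, where 31.5% of all loci were. The thiol reductase IFI30, listed with PIK3R2, had 81 and 76 fragments there and 168 and 99 in NCM460 cells, where it was lower by -1.23 (-1.61 to -0.87). The merged locus of HLA-DMA and HLA-DMB had 11 and 9 fragments in HT-29 cells against 3 and 7 in NCM460 cells.

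**Figure D5:**
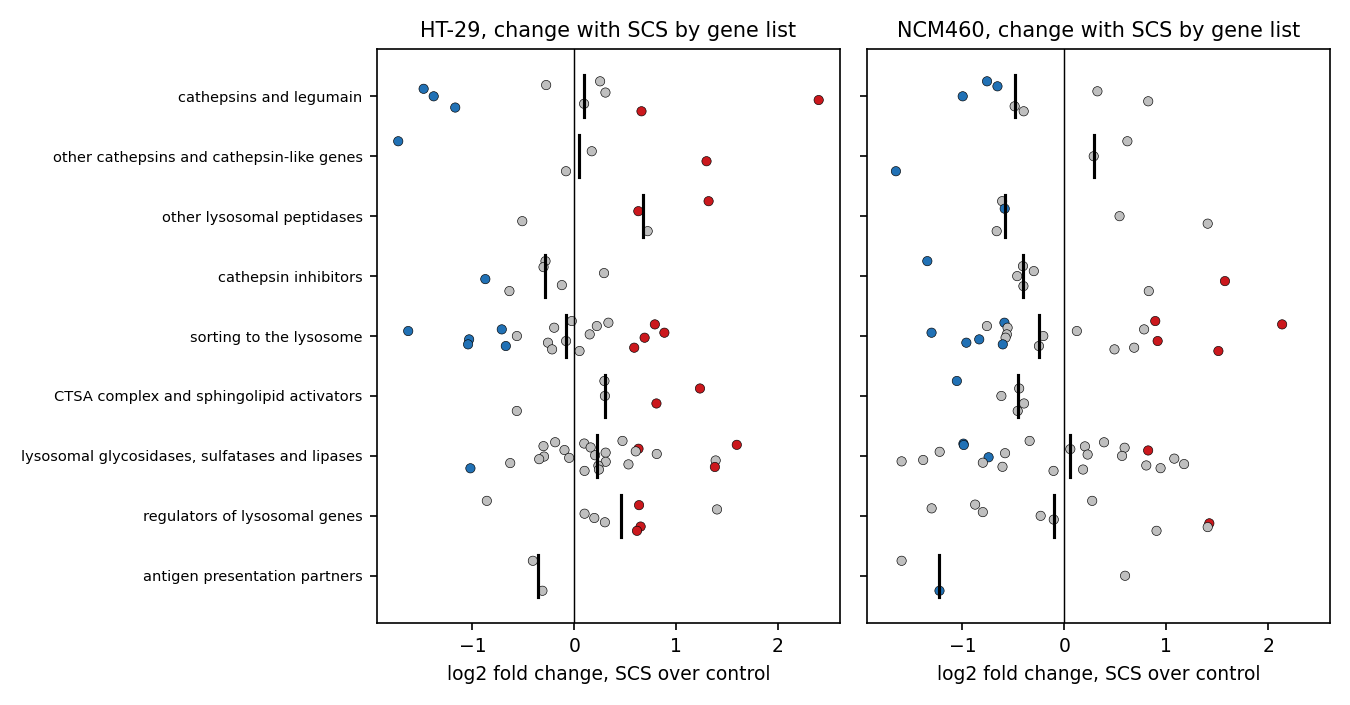
Log2 difference of SCS over control (horizontal axis) of each tested locus in the 9 genes and in 8 lists of related genes, for HT-29 cells (left) and NCM460 cells (right). Red points were called higher, blue points lower and grey points not called, and black bars are medians. In HT-29 cells the medians of other lysosomal peptidases and of regulators are 0.67 and 0.46, and in NCM460 cells the median of the 7 measurable cathepsins and legumain is -0.49.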

How the data were processed

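Paired-end RNA-seq of HT-29 and NCM460 cells, control and SCS, was analysed, with samples grouped by the submitters' labels. Per the labels, libraries were made with the NEBNext Ultra kit, which does not mark strand, and the submitters' processing notes name bcl2fastq 2.17.1.14, cutadapt 1.9.1, Bowtie2, HTSeq 0.6.1 and hg19. The study's methods name Cuffdiff. The coordinates in the table are those of GRCh38 and were matched to GENCODE release 29.

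The authors deposited 1 table of 64962 rows. Its count columns hold a signal, in which the authors had scaled fragment counts by 1 size factor per library, where whole counts had been assumed in the design. One fragment was worth 0.686, 0.577, 2.04 and 1.33, and division by it gave whole numbers within 0.05 for 99.8%, 99.9%, 99.9% and 99.9% of values above 0, which were rounded to fragments. The FPKM columns were used as the authors deposited them. The 26 rows without a gene name (0.0942%, 0.0928%, 0.0403% and 0.0690% of fragments) were left out, and adjacent rows with identical values were merged, which gave 1812 loci of more than 1 gene. In CTSA and CTSD, reads of overlapping genes (PLTP with 8, 9, 5 and 5 fragments, and AC068580.6 and AC068580.5 with at most 3) cannot be told apart by strand.

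Fragments were scaled by TMM factors (edgeR 4.0.16) of 1.24, 1.50, 0.578 and 0.935. A locus was tested for a call when it averaged 1 CPM or more over the libraries compared. For the difference of responses the interval is the exact conditional interval of the odds ratio of the 4 counts. A floor of 3 fragments equals 1.47, 1.25, 3.85 and 2.77 CPM. The quasi-likelihood test of edgeR and DESeq2 1.42.0 could not be fitted within a line with 1 library per condition and call no gene there. No fit with line and SCS as terms over all 4 libraries was made. GC content is the mean over the protein-coding transcripts of a gene, or over all its transcripts where it has none of these. For a merged locus it is that of the first gene listed that GENCODE holds, which need not be the gene named here. The trend on GC was a lowess curve with a span of 0.3 (statsmodels 0.14.6). The steps were tested on simulated data.

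All members are named, and of each list the highest and lowest locus in each line among those averaging 5 CPM or more, the 2 highest in FPKM, and CTSV. CTSE was named with its value known. The members and lists were chosen with earlier results of these data known. Alternatives were DESeq2 size factors, total, nuclear or the authors' scaling, a GC or expression trend subtracted, thinning to 507692 nuclear fragments, a threshold of 2-fold, a prior count of 0.5, other filters on low counts, and FPKM with a pseudocount of 0.1.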

Additional observations from a re-analysis of the deposited data

Results flagged for a closer look

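The response of CTSD to SCS differed between the lines by 1.30 on the log2 scale (HT-29 minus NCM460). It stood out because the counting interval of the HT-29 difference, 0.31 (0.16 to 0.46), lies above 0 and that of the NCM460 difference, -0.997 (-1.40 to -0.62), lies below it. With the GC trend subtracted, the NCM460 value was -0.31 (-0.71 to 0.07), whose interval holds 0, and the difference was 0.62. The values of CTSD are uncertain, since the table lists it with the same numbers as IFITM10 and RP11-295K3.1. The interval of the difference, 0.90 to 1.73, covers counting error only, and with 1 library per condition the difference between conditions was not tested.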

How the results depend on the processing

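Of the 9 genes, 5 were called in HT-29 cells, and between 4 and 6 under the alternatives. In NCM460 cells 3 were called, but 1 with total counts only, 0 with the GC trend subtracted, 1 with the expression trend subtracted, 0 at a threshold of 2-fold and 6 by the deposited FPKM, for which only the fold was used. Between the lines 7 were called, and 4 at 2-fold. For the difference of responses 6 were called, and 3 with the GC trend subtracted. With total counts only, the log2 difference of CTSB in NCM460 cells turned to 0.0339 and that of LGMN between the lines to 0.0975, and among differences not called CTSA between the lines turned to 0.65, CTSZ in NCM460 cells to 0.19, LGMN in NCM460 cells to 0.26 and the CTSB difference of responses to -0.04. With the GC trend subtracted, CTSA between the lines turned to 0.22, CTSZ and CTSC in NCM460 cells to 0.10 and -0.42, and the CTSB difference of responses to -0.17. Across all loci, the deposited FPKM raised the number called from 3839 to 6425 in HT-29 cells and from 3690 to 8430 in NCM460 cells, from 6144 to 9352 between the lines and from 3179 to 9122 for the difference of responses. A 2-fold threshold left 2277 calls in HT-29 cells and the GC trend 1582 in NCM460 cells. Apart from these settings and the losses of call given with each gene, the cause of a move was not tested. Genes under 10 fragments in a library, CTSS, CTSH in NCM460 cells and CTSL in the HT-29 control among them, have ratios that this depth limits. No paired analysis was possible because the labels give no replicate numbers and each condition has 1 library, so that none could be left out. A model over the 4 libraries with line and SCS as terms was not run.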
